A study of Mus musculus with 21 samples.

Results

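The 37 genes described here act in the burning of fatty acids and the making of ketone bodies in hepatocytes, together with 5 genes known to respond to fasting or to the nuclear receptor PPARα. They were chosen by name from this pathway, and all 37 were found among 21887 protein-coding genes of the mouse RefSeq table (GRCm38, equal to mm10). Each gene was examined over its body plus 25 kb on each side, called its window below. Peaks of 11 chromatin immunoprecipitation sequencing (ChIP-seq) libraries were listed in these windows and compared between genotypes. The lists come from hepatocytes isolated by liver perfusion at day 90 after birth, and the mice were a mix of the C57/B6 and 129 strains. Mice of genotype Arid1a Fl/Fl, called WT below, gave 2 C/EBPα and 3 H3K4me2 libraries. Mice of genotype Arid1a Fl/Fl; Alb-cre, called KO below, gave the same numbers, so that both groups carry floxed Arid1a and only the KO group carries Cre recombinase under the albumin promoter. The promoter of albumin is active in the hepatocyte lineage, so the deletion is not one of the whole animal. A single library against the V5 tag came from V5-Arid1a mice and shows where tagged ARID1A was found. The labels number the libraries but do not say whether each came from a different mouse, so the spread between libraries may be technical.

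Fatty acids enter the hepatocyte through carriers, are joined to coenzyme A, and cross into mitochondria on carnitine before β-oxidation shortens them to acetyl-CoA. Peroxisomes shorten very long chains first, thioesterases free fatty acids from coenzyme A again, and in fasting the liver turns surplus acetyl-CoA into ketone bodies for other organs. PPARα switches many of these genes on when fatty acids rise. C/EBPα binds DNA and drives genes of the mature hepatocyte, ARID1A is a DNA-binding subunit of the SWI/SNF complexes that move nucleosomes, and H3K4me2 is a histone mark found at promoters and enhancers.

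Between 16178 and 23646 peaks made up each of the 4 C/EBPα lists, the longest being WT list 2. The 6 H3K4me2 lists ranged from 24908 peaks (KO list 1) to 175797 (KO list 3), and 5726 peaks made up the ARID1A list. Read numbers are not given in the sources, so depth is unknown, and absence from a list is not absence of binding. Hepatocyte genes carried H3K4me2 in all 6 lists at 6 of 6 markers and C/EBPα in all 4 lists at 4 of 6 (Alb, Ttr, Fga and Cps1, but not Apoa1 or Hnf4a). None of 4 Kupffer cell and leukocyte, 4 endothelial and 4 stellate cell markers had a C/EBPα peak in any list, and 1 of 4 biliary markers had one. H3K4me2 was less restricted: outside the hepatocyte list it was in all 6 lists at Epcam, in 5 at Lyve1 and Col1a1, and in 4 at Kdr, Lrat and Sox9. The lists hold no RNA and cannot show whether Arid1a was removed, so the genotypes are as labelled.

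C/EBPα peaks stood near nearly all of these genes in both genotypes. Of the 37 genes, 36 (97.3%) had a C/EBPα peak in the window in all 4 lists, against 39.9% of all protein-coding genes. The exception was Ehhadh, the peroxisomal bifunctional enzyme, with 0 and 2 peaks in WT against 1 and 1 in KO. The windows merge into 33 stretches because Acot1, Acot4, Acot3 and Acot5 lie side by side, as do Hadha and Hadhb, and neighbours share peaks. These stretches held 108 and 131 C/EBPα peaks in WT against 117 and 123 in KO. As a share of each list this was 0.609% and 0.554% in WT and 0.723% and 0.692% in KO. The KO shares were the higher ones, and the share of each list lying within 25 kb of any protein-coding gene was also higher in KO, at 84.7% and 84.1% against 80.6% and 80.7%.

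The number of C/EBPα peaks was lower in both KO lists than in both WT lists for 5 of the 37 genes, or 13.5%, against 8.75% of all protein-coding genes. Among the 12824 genes with a peak in any list the share was 14.9%, so the count of lower genes was close to that of other bound genes. For 6 of the 37 genes (16.2%) both KO lists had more peaks than both WT lists, against 3.71% of all genes and 6.32% of the genes with a peak. The numbers overlapped between genotypes in the remaining 26 genes. Only Acot1 was lower when the 16178 widest peaks of every list were used (against 4.96% of all genes), and 8 genes were then higher (against 8.98%). The lower genes numbered 11 without WT library 1 (against 21.3% of all genes), 8 without WT library 2 (against 9.91%) and 8 without KO library 2 (against 13.1%). The higher genes numbered 9 without WT library 2 (against 12.4%). The shares over all genes thus moved with these settings too. The median difference between genotypes was 0 for these genes and 0 for all genes. With 2 libraries against 2, the exact permutation test (two-sided) cannot give a p below 0.3333, and the smallest adjusted p was 1.0, so no gene passed a test at 0.05 and the calls are counts of lists that do not overlap.

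**Figure D1:**
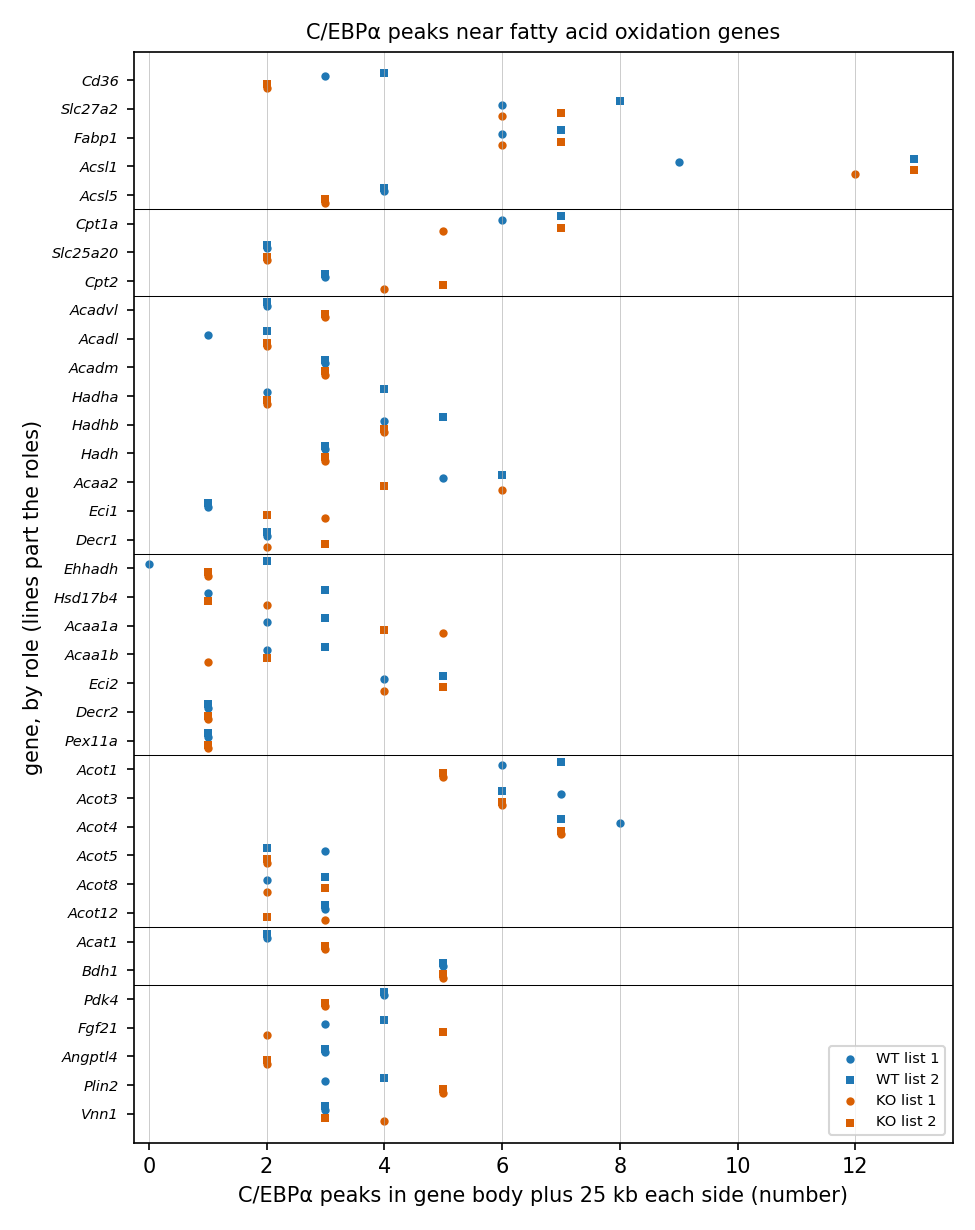
Number of C/EBPα peaks in the window of each of the 37 genes (x axis) in the 2 WT and 2 KO lists, with genes ordered by role on the y axis. Points of one gene are offset vertically so that equal numbers stay visible. Cd36, Acsl5, Acot1, Pdk4 and Angptl4 have both KO points to the left of both WT points, and Cpt2, Acadvl, Eci1, Acaa1a, Acat1 and Plin2 have them to the right.

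Joining the peaks of the 4 lists wherever they shared at least 1 bp gave 153 C/EBPα regions near the 37 genes, between 1 and 14 per gene with a median of 4. A region is called kept when all 4 lists have a peak in it, lost when both WT lists and neither KO list have one, and gained for the reverse. Of the 153 regions, 89 (58.2%) were kept, against 44.2% of the regions near all protein-coding genes. Lost regions numbered 10, which is 9.52% of the 105 regions present in both WT lists, against 16.9% near all genes. Gained regions numbered 7, or 6.6% of the 106 regions present in both KO lists, against 5.62% near all genes. The remaining 47 had another pattern, most often a peak in WT list 2 alone (10 regions), in every list but WT list 1 (8 regions), or in 1 KO list alone (7 and 6 regions). A call needs fewer lists when a library is left out. Without WT library 1 the lost regions numbered 20, or 15.4% of those that could be lost, against 27.5% near all genes. Gained regions numbered 15 without WT library 2 (14.2%, against 17.3% near all genes), 13 without KO library 1 (10.7%, against 11.6%) and 14 without KO library 2 (12%, against 9.9%). With the 16178 widest peaks of every list they made up 8.57%, against 12% near all genes, so the gained share was above that near all genes under some settings and below it under others.

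**Figure D2:**
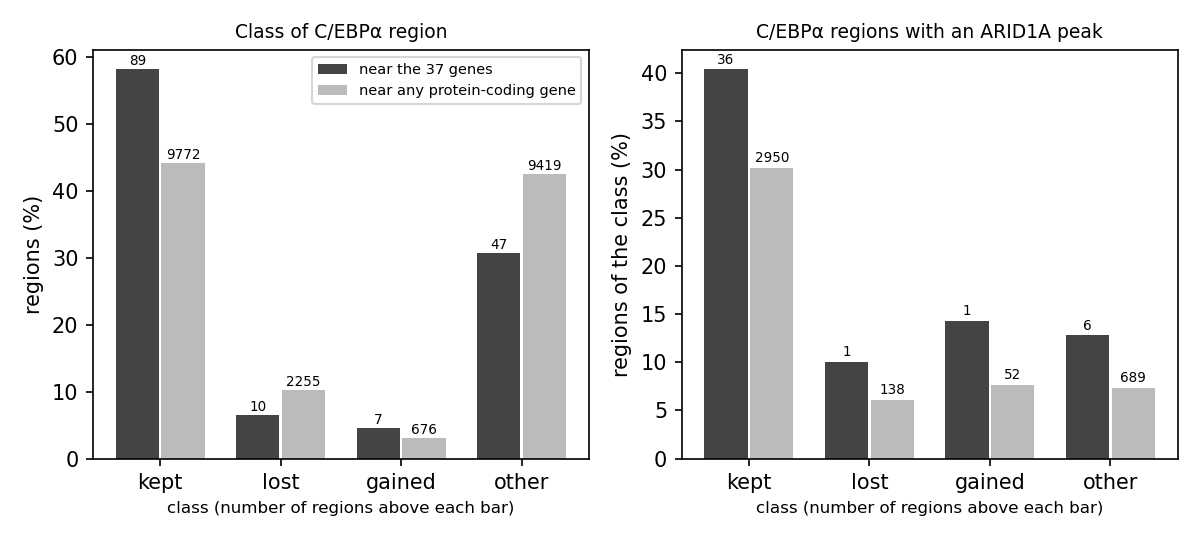
Left, share of C/EBPα regions (%) in each class near the 37 genes (dark bars) and near any protein-coding gene (light bars). Right, share of the regions of each class (%) that overlap an ARID1A peak. The number of regions is above each bar, and kept regions make up 58.2% near the 37 genes and 44.2% near any gene.

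A lost region lay in the window of 11 of the 37 genes and a gained one in that of 7, and 21 genes had neither. Acot3, Acot4 and Acot5 share the lost region at the Acot5 start, so it is counted for each of them. The same counts by gene were not made over all genes, so whether these are high or low cannot be read from them. Of the 10 lost regions 6 overlapped the body of a pathway gene, 1 of them at its start. Of the 7 gained regions 1 was inside a pathway gene and 0 were at a pathway gene's start. Of the 89 kept regions 38 (42.7%) were in the body of a pathway gene. Counting the body of any gene, it was 8 of the 10 lost regions (80%, against 70.3% near all genes). For gained regions it was 5 of the 7 (71.4%, against 78.6%). In 3 gained regions (42.9%) the peak was at the start of a neighbouring gene, and near all genes 40.1% of gained and 3.55% of lost regions were at a gene start. H3K4me2 covered 6 of the 7 gained regions in all 6 lists (85.7%, against 53.6% of gained regions near all genes). Of the 10 lost regions 0 were marked in all 6 lists (against 5.32% near all genes), and 5 had no H3K4me2 in any KO list (50%, against 56.2% of lost regions near all genes). Of the 89 kept regions 44 were marked in all 6 lists (49.4%, against 40.4% near all genes). The WT peaks of the lost regions ranged from percentile 0.5 to 98.4 of the width in their list. Both were narrow in the lost regions near Bdh1 (9.4 and 13.4) and Angptl4 (13.5 and 13.4). Both were wide in the one at the Acot5 start (96.8 and 93.1).

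**Figure D3:**
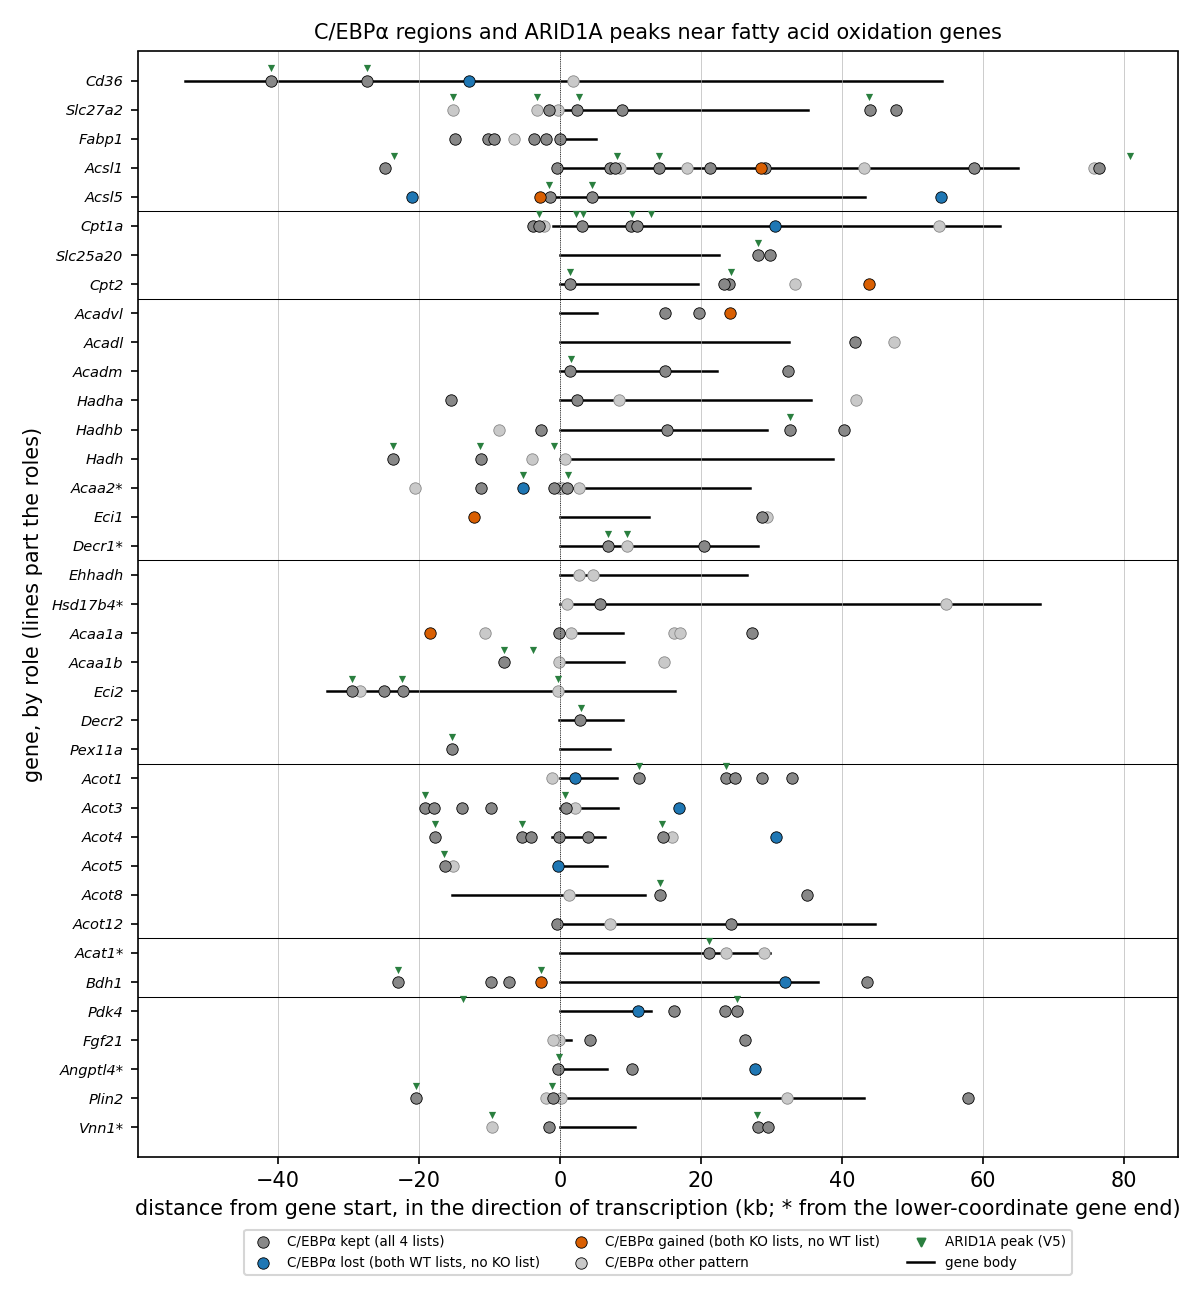
Position of each C/EBPα region (circles, by class) and ARID1A peak (green triangles) relative to the start of each of the 37 genes, in kb along the direction of transcription, with the gene body as a black line. A star marks genes for which the start is not in the table used, drawn from the gene end with the lower coordinate. Fabp1 and Cpt1a carry runs of kept regions, and the gained regions near Cpt2, Acadvl, Eci1 and Acaa1a lie outside those genes.

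Gene starts were taken from RefSeq (GRCm38.p6 promoter table), which held 31 of the 37 genes. Within 1 kb of the start, C/EBPα was kept at 7 of these 31 (22.6%, against 9.2% of all genes with a start), lost at 1 (against 0.406%) and gained at 0 (against 1.47%). The kept starts were those of Fabp1, Acsl1, Acaa1a, Acot3, Acot4, Acot12 and Plin2, and the lost one was that of Acot5. The other 23 divided into 7 with a peak in some lists of a genotype and 16 with no peak. Acot5, a peroxisomal medium-chain thioesterase, is shown beside its neighbour Acot4 because the pair lie in one cluster and differ in class. Acaa1a, the peroxisomal thiolase, and Fabp1, the liver fatty acid binding protein, are shown because theirs are the only promoters with C/EBPα in all 4 lists of these genes that hold TTGCNNAA, a loose form of the C/EBP site. The sequences are the 250 bases before the start, mm10, 5′ to 3′ on the plus strand, on which all 4 genes lie; capitals mark matches to TTGCNNAA on either strand and, in Fabp1, to a direct repeat of AGGNCA with 1 base between the copies.
Acot5 (chr12:84069074-84069323): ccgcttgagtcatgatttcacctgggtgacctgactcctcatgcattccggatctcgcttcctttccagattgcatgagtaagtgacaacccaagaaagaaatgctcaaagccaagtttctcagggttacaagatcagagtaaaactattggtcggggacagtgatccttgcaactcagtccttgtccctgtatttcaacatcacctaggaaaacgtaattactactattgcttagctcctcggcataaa
Acot4 (chr12:84038129-84038378): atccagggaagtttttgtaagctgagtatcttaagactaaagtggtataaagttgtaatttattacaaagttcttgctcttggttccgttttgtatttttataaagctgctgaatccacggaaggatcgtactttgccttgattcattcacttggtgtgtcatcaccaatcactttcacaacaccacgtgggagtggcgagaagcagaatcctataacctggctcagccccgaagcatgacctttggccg
Acaa1a (chr9:119341044-119341293): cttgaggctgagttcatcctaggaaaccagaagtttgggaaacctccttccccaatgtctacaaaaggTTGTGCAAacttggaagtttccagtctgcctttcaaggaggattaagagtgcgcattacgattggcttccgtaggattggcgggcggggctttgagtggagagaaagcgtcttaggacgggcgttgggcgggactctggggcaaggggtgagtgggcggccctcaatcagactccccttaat
Fabp1 (chr6:71199629-71199878): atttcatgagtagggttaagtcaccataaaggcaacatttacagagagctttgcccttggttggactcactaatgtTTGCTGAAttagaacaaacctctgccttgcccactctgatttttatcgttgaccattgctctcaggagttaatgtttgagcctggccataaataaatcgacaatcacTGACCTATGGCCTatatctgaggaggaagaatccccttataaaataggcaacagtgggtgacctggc

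The full C/EBP palindrome TTGCGCAA was in 0 of the 35 promoters of the 31 genes and in 0.198% of the 21263 promoters of all protein-coding genes. The looser TTGCNNAA, whose matches include the palindrome, was in 3 of the 35 (8.57%) and in 9.09% of all promoters. It was in 23.9% of all promoters that had C/EBPα in all 4 lists and in 7.96% of those with no peak. Of the 5 pathway promoters with C/EBPα in all 4 lists 2 held it, in Acaa1a at −182 and in Fabp1 at −174 from the start. The promoter of Acot5, with C/EBPα in WT lists only, did not hold these letters. The AGGNCA repeat, the form of site that PPARα binds with its partner RXR, was in 1 of the 35, at −67 of Fabp1, and in 0.32% of all promoters. The exact AGGTCA repeat was in 0 of the 35 and in 0.0423% of all. Promoters of Acot1, Acot3, Acot4 and Acot5 were 42.4% to 47.7% identical in pairs when aligned, and those of Acaa1a and Acaa1b were 48.2% identical. Unrelated promoters were not aligned, so these values cannot show whether the promoters are more alike than others. A match is a description of letters and not of a bound site.

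Among the genes of fatty acid uptake, binding and activation, Cd36 and Acsl5 had fewer C/EBPα peaks in KO. Cd36, the fatty acid translocase at the cell surface, had 3 and 4 peaks in WT against 2 and 2 in KO. Its lost region was inside the gene body at chr5:17848502-17849017 and carried H3K4me2 in 1 WT list and in 0 KO lists. The peak there was 248 bp wide in WT list 1, at percentile 0.5 of the width in that list. In WT list 2 it was 516 bp wide (percentile 80.2). In the same gene body 2 kept regions each held an ARID1A peak. Acsl5, one of the acyl-CoA synthetases that activate long chains, had 4 and 4 peaks in WT against 3 and 3 in KO, so the groups did not overlap. The single-peak difference was the balance of 2 lost regions, both in neighbouring genes (in Gucy2g at chr19:55232267-55232636 and in Zdhhc6 at chr19:55307288-55307663), and of a gained one, at −2781 from the Acsl5 start (chr19:55250400-55250775). With a window of 10 kb, which leaves out both lost regions, the difference for Acsl5 turned to 1.0 peaks more in KO.

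Acsl1, the main long-chain acyl-CoA synthetase of liver, had the most C/EBPα regions of the 37 genes, 14. Its numbers overlapped, with 9 and 13 peaks in WT against 12 and 13 in KO. A gained region in its body (chr8:46499357-46499706) lay 152 bp from a kept one, and H3K4me2 covered it in all 6 lists. Slc27a2, a very-long-chain acyl-CoA synthetase that also carries fatty acids in, had 6 and 8 peaks in WT against 6 and 7 in KO. Fabp1 had 6 and 7 in each genotype, with 6 kept regions from −14803 to the start itself and no lost or gained one.

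In the carnitine shuttle, binding at Cpt1a and Slc25a20 overlapped between genotypes. Cpt1a, the liver carnitine palmitoyltransferase that sets the pace of mitochondrial entry, had 6 and 7 C/EBPα peaks in WT against 5 and 7 in KO. Its 5 kept regions lay between −3792 and 10948 bases from the start, and the lost one was deeper in the body, 30518 bases after the start (chr19:3353348-3354289). Slc25a20, the carnitine-acylcarnitine carrier of the inner membrane, had 2 peaks in each of the 4 lists. Cpt2, the inner-membrane transferase, had 3 and 3 peaks in WT against 4 and 5 in KO, and both KO lists were above both WT lists. The gained region was not at Cpt2 but at the start of Magoh, 43829 bases from the Cpt2 start (chr4:107879582-107879937). A further peak, in KO list 2 only, was at the start of Czib (chr4:107889966-107890562). The 3 kept regions of Cpt2 were in all lists.

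Among the mitochondrial β-oxidation genes, Acadvl and Eci1 had more C/EBPα peaks in KO, with the gained regions at neighbouring genes. Acadvl, the very-long-chain acyl-CoA dehydrogenase, had 2 and 2 C/EBPα peaks in WT against 3 and 3 in KO. The third was at the start of Gabarap (chr11:69990923-69991806). Eci1, an enoyl-CoA isomerase for unsaturated chains, had 1 and 1 in WT against 3 and 2 in KO, and its gained region was inside Rnps1 (chr17:24414219-24414786). With a window of 10 kb neither gene differed, nor did Cpt2: the difference was 0.0 for all of them. Acaa2, the mitochondrial thiolase, had 5 and 6 peaks in WT against 6 and 4 in KO, which overlap. A lost region near it, 5235 bases from the closer gene end, held an ARID1A peak and no H3K4me2 in any list. It was the only one of the 10 lost regions with ARID1A.

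The other members of this group showed overlapping numbers. The medium-chain dehydrogenase gene Acadm had 3 peaks in each list and Hadh, the 3-hydroxyacyl-CoA dehydrogenase, had 3 in each list. Hadha and Hadhb encode the α and β subunits of the trifunctional protein, are read in opposite directions from adjoining starts, and share kept regions. Hadha had 2 and 4 peaks in WT against 2 and 2 in KO, and Hadhb had 4 and 5 in WT against 4 and 4 in KO. The long-chain dehydrogenase gene Acadl had 1 and 2 in WT against 2 and 2 in KO. For Decr1, the mitochondrial dienoyl-CoA reductase, the numbers were 2 and 2 in WT against 2 and 3 in KO.

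The windows of the 7 genes of peroxisomal β-oxidation held 22 C/EBPα regions, of which 9 were kept, 0 lost, 1 gained and 12 of another pattern. Near all genes 16.9% of regions in both WT lists were lost, and 0 among so few regions cannot be told apart from that share. Acaa1a had more peaks in KO. Its window held 2 and 3 peaks in WT against 5 and 4 in KO, with no overlap. The region at its start was kept, and the gained one was at the start of Oxsr1 at chr9:119322653-119323138, −18398 from the Acaa1a start. The further peaks were each in 1 KO list. Acaa1b, the paralogous thiolase that responds to peroxisome proliferators, had 2 and 3 peaks in WT against 1 and 2 in KO, and the region over its start was missing from KO list 1 only. Hsd17b4, the D-bifunctional protein, had 1 and 3 in WT against 2 and 1 in KO. The isomerase gene Eci2 had 4 and 5 in both genotypes. Decr2 and Pex11a, a reductase and a factor of peroxisome division, had 1 peak in each list, which fell in a kept region.

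In the acyl-CoA thioesterase cluster on chromosome 12, the windows of Acot1, Acot3, Acot4 and Acot5 held 2 lost regions and 0 gained ones. The cluster also holds Acot2 and Acot6, counted with the other pathway genes below, and the Acot6 window has a lost region of its own (chr12:84128628-84129058). Acot1, a cytosolic long-chain thioesterase, had 6 and 7 C/EBPα peaks in WT against 5 and 5 in KO. Its lost region lay 2141 bases after the start, in the body (chr12:84011445-84011840). The second of the 2 covered the Acot5 start (chr12:84068709-84069488, centred at −225), and was 780 bp long. H3K4me2 covered that region in 3 WT and 2 KO lists. Because Acot5 had 3 and 2 peaks in WT against 2 and 2 in KO, its total overlapped between genotypes although the start did not. Acot3 (7 and 6 in WT, 6 and 6 in KO) and Acot4 (8 and 7 in WT, 7 and 7 in KO) hold the same lost region in their windows. Outside the cluster, Acot8 had 2 and 3 peaks in both genotypes. Acot12, a cytosolic acetyl-CoA thioesterase, had 3 and 3 in WT against 3 and 2 in KO.

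Both ketone body genes carried kept regions. Bdh1, which interconverts acetoacetate and β-hydroxybutyrate, had 5 C/EBPα peaks in every list. This equal total hid an exchange of a lost region in the body (chr16:31454018-31454315) for a gained one at −2683 from the start (chr16:31419412-31419816), the only gained region with an ARID1A peak. The mitochondrial acetoacetyl-CoA thiolase gene Acat1 had 2 and 2 peaks in WT against 3 and 3 in KO. No region there was gained: 1 was kept, and the other 2 were each missing from a different WT list.

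Among the fasting and PPARα response genes, Pdk4 and Angptl4 had fewer C/EBPα peaks in KO and Plin2 had more. Pdk4, the kinase that shuts off pyruvate dehydrogenase in fasting, had 4 and 4 peaks in WT against 3 and 3 in KO. The lost region was in its body, 11095 bases after the start (chr6:5484990-5485375), with H3K4me2 in 2 WT lists and 0 KO lists. Angptl4, a secreted inhibitor of lipoprotein lipase, had 3 and 3 in WT against 2 and 2 in KO, and the lost region lay outside the gene (chr17:33802395-33802712). Plin2, a lipid droplet coat protein, had 3 and 4 in WT against 5 and 5 in KO, from regions present in 1 or both KO lists of which none met the rule for gained. Fgf21, the hepatokine of fasting, had 3 and 4 in WT against 2 and 5 in KO, the widest split within a genotype for this group. Vnn1, the pantetheinase that responds to PPARα, had 3 and 3 in WT against 4 and 3 in KO. At a window of 10 kb the difference at Angptl4 was 0.0. When the narrower part of all C/EBPα peaks, below the pooled median width, was left out, Pdk4 and Angptl4 turned to 1.0 more peaks in KO, and Cd36 and Acsl5 to 0.5 more. Median peak width was 421 and 396 bp in the KO lists and 391 and 381 bp in the WT lists. Over all genes this setting gave 3.86% lower and 4.99% higher, against 8.75% and 3.71% with all peaks. What part the widths play in these turns was not tested.

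The width of a peak within its list was compared in the 89 kept regions, a comparison chosen after seeing the data. The width percentile was lower in both KO lists in 15 regions (16.9%, against 26.1% of kept regions near all genes) and higher in both in 17 (19.1%, against 15.2%). The largest rise was in the Acsl1 body at chr8:46477840-46478471, from percentiles 18.9 and 44.1 in WT to 84.1 and 84.3 in KO. The region just before the Acsl5 start (chr19:55251612-55252378) stood at 72.6 and 47.5 in WT and at 88.9 and 92.6 in KO. In the other direction, a region in the Slc27a2 body (chr2:126561639-126562082) stood at 15.1 and 67.2 in WT and at 2.2 and 10.2 in KO. The 2 WT values of that region differ by more than the genotypes do.

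ARID1A was found in the window of 27 of the 37 genes (73%), against 20.2% of all protein-coding genes and 45.2% of the genes with C/EBPα in all 4 lists. The windows held 50 ARID1A peaks in this single library, and 16 genes (43.2%, against 10.4% of all genes) had one in the body or within 1 kb of it. Cpt1a had the most, 5, followed by Acsl1 and Slc27a2 with 4 each. At Cpt1a the widest peak lay upstream of the start (chr19:3320003-3320587, percentile 97.2 of the width in its list), and the other 4 were in the body. The widest ARID1A peaks near these genes were in Acsl1 (chr8:46478763-46479670, 908 bp), Acot3 (chr12:84052493-84053382, 890 bp) and Eci2 (chr13:35016036-35016856, 821 bp). Within 1 kb of a start, ARID1A was found at 4 of 31 genes (12.9%, against 1.75% of all), namely Acot3, Plin2, Hadh and Eci2. The 10 genes without an ARID1A peak were Fabp1, Acadvl, Acadl, Hadha, Eci1, Ehhadh, Hsd17b4, Acaa1a, Acot12 and Fgf21.

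Most ARID1A peaks near these genes sat where C/EBPα was kept in KO. Of the 50, 36 (72%) overlapped a kept C/EBPα region, against 63.5% of the ARID1A peaks near all genes. The others divided into 1 on a lost region, 1 on a gained one, 5 on regions of another pattern and 7 on no C/EBPα region. Of the 105 regions present in both WT lists, 38 (36.2%) carried ARID1A, against 24.3% near all genes. By class this was 36 of 89 kept regions (40.4%) and 1 of 10 lost regions (10%), and near all genes 30.2% of kept and 6.12% of lost regions. The share was thus higher in kept than in lost regions both near these genes and near all genes.

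H3K4me2 marked the starts of nearly all of these genes in both genotypes. It was present within 1 kb of the start in all 6 lists at 27 of 31 genes (87.1%, against 53.2% of all genes), and at an end of the gene in all 6 lists in the 6 genes without a start in the table. It was lost at 0 starts (against 0.0743% of all genes) and gained at 0 (against 0.00572%). Acot1, Acot5 and Fgf21 lacked it in KO list 1 only. Cd36 was marked at the start in WT list 2 and KO lists 2 and 3 only. Where the start was marked throughout, the percentile of the start's −log10 q within its list, a comparison chosen after seeing the data, was lower in all KO lists at 0 of 27 genes (against 2.6% of all genes). It was higher in all KO lists at 1, Fabp1 (against 2.01%). For Fabp1 it was 79.3, 80.2 and 84.5 in WT and 88.7, 90.1 and 90.9 in KO.

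The number of H3K4me2 peaks was lower in all KO lists at 0 of the 37 genes (against 0.0777% of all genes) and higher at 1 (2.7%, against 0.58%). That gene was Cpt2, with 4, 4 and 4 in the WT lists against 5, 5 and 10 in KO. The 10 came from KO list 3, whose peaks were the most numerous and the narrowest. Their median width was 429 bp, against 634 to 918 bp in the other H3K4me2 lists. Without KO library 1, the library with the fewest peaks, 10 genes were higher in number, against 12.1% of all genes. Without KO library 2 there were 3 (against 2.14%), without WT library 3 there were 2 (against 1.43%), and without KO library 3 there were 3 lower genes (against 3.08%). The length covered by those peaks did not separate the genotypes at Cpt2, with 9752, 9581 and 8083 bp in WT and 6917, 9921 and 12663 bp in KO. Covered length was lower in all KO lists at 0 of the 37 genes (against 0.649%) and higher at 0 (against 0.0457%). Without KO library 2, 7 genes were lower (against 8.85% of all genes), and without KO library 1, 3 were higher (against 14.8%). With 3 libraries against 3 the exact permutation test (two-sided) cannot give a p below 0.1, and 0 genes of all those tested had an unadjusted p under 0.05.

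**Figure D4:**
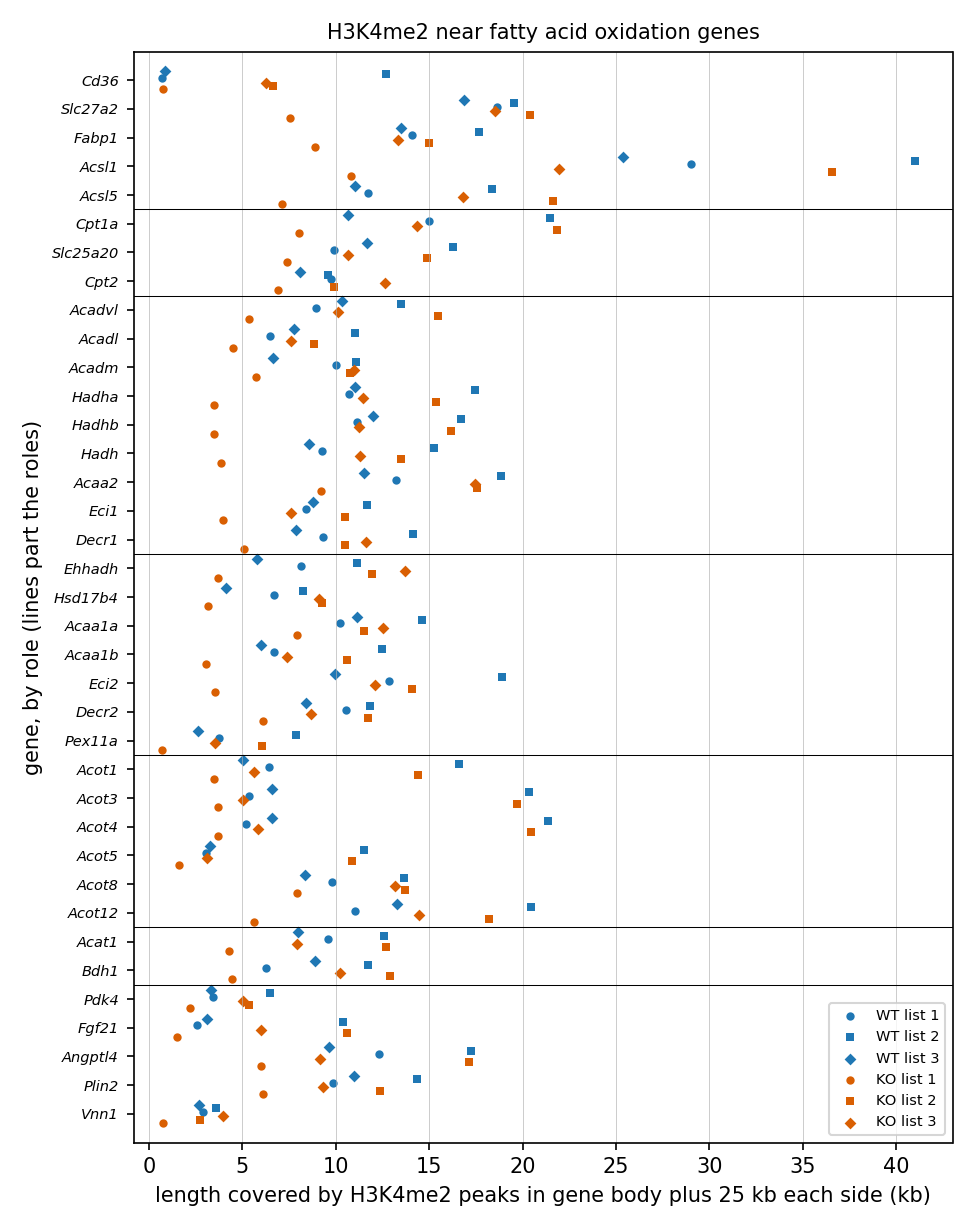
Length covered by H3K4me2 peaks (kb) in the window of each of the 37 genes, in the 3 WT and 3 KO lists, with genes ordered by role. KO list 1 is the lowest point in 36 of the 37 genes, and WT list 2 is the highest in 25.

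The H3K4me2 lists of one genotype differed widely from each other. KO list 1 gave the lowest covered length, ties included, at 36 of the 37 genes (97.3%, against 90.3% of all genes with the mark in any list). WT list 2 gave the highest at 25 (67.6%, against 30.9% of those genes), and KO list 3 at 3 (8.11%, against 41.2%). Summed over the merged windows, H3K4me2 covered 322.2, 495.7 and 296.6 kb in WT and 171.0, 459.4 and 360.9 kb in KO, so the totals overlap. At Acsl1 the covered length was 29012, 41001 and 25371 bp in WT and 10833, 36563 and 21949 bp in KO. At Angptl4 it was 12316, 17238 and 9665 bp in WT and 5985, 17133 and 9176 bp in KO. In both genes list 2 of each genotype was the highest and each KO list was below the WT list of the same number.

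In covered length, deviations of same-numbered H3K4me2 lists correlated by 0.45 for number 1 and 0.43 for number 2. For number 3 the value was 0.14, against 0.13 for WT list 3 with KO list 1. In peak number these were 0.11 and 0.18, so the data do not set pair 3 apart. The comparison within pairs of the same number was also made, with this limit. Under this pairing, covered length was lower in KO in every pair at 11 of the 37 genes (29.7%, against 8.68% of all genes) and higher in every pair at 0 (against 2.01%). The 11 were Acsl1, Fabp1, Slc25a20, Acadl, Eci1, Hadhb, Acot3, Acot4, Acot5, Angptl4 and Plin2, of which Acot3, Acot4 and Acot5 share much of a window. At Fabp1 the values were 14099, 17657 and 13522 bp in WT and 8874, 14988 and 13324 bp in KO, and at Plin2 they were 9836, 14354 and 10995 bp in WT and 6110, 12353 and 9314 bp in KO. The pairs did not contribute alike: covered length was lower in KO at 36 of the 37 genes in pair 1, at 26 in pair 2 and at 13 in pair 3, against 71.7%, 45.3% and 14.9% of all genes. Peak number was higher in KO in every pair at 4 genes (10.8%, against 3.11% of all genes), namely Cpt2, Fabp1, Decr2 and Acot12. Fabp1 thus had more peaks over a shorter length in each pair. The median difference in covered length was −1360 bp (KO minus WT) over the 37 genes and 153 bp over all genes. In the WT lists the median covered length was 9591, 14145 and 8385 bp for the 37 genes. It was 2959, 5485 and 3100 bp for all genes with the mark in any list. The shares and the median over all genes thus include many genes with less of the mark. A share over genes of like coverage was not computed.

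A further 50 genes of the pathway, among them its regulators Ppara and Ppargc1a, were counted for comparison. C/EBPα was in the window in all 4 lists at 40 of them (80%, against 39.9% of all genes). Peak number was lower in both KO lists at 4 (8%, against 8.75% of all genes), namely Acadsb, Acot2, Acot6 and Acsl4. It was higher at 1 (2%, against 3.71%), Lpin1. Of their 202 regions 108 were kept and 10 lost, which is 7.58% of the 132 in both WT lists (against 16.9% near all genes). The lost region near Acot2 is the one in the Acot1 body, so both sets of genes count it. Gained regions numbered 2, or 1.55% of the 129 in both KO lists (against 5.62% near all genes). The regions in Ppargc1a, a coactivator of PPARα, included 2 lost and 1 gained, all in its body, and its window held 10 and 12 peaks in WT against 10 and 8 in KO. The second gained region was at the start of Acad11, an acyl-CoA dehydrogenase (chr9:104064531-104065142), whose window held 3 and 4 peaks in WT against 4 and 5 in KO. Ppara had 5 and 6 in WT against 7 and 6 in KO, and 7 ARID1A peaks in its window. An ARID1A peak was in the window of 26 of the 50 (52%, against 20.2% of all genes).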

How the data were processed

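Peaks from 11 libraries were used, and 10 input samples have no peak list here. The submitters' processing notes list MACS2 2.0.10.20131216, HOMER, Bowtie2 2.2.3, Picard and mm10 with no roles. The deposited C/EBPα and V5 lists hold start and end positions and no measure of strength. Their peak names skip numbers, so that 40% to 40.1% of the numbers are present, and how the authors picked these peaks is not stated here. The deposited H3K4me2 lists give per peak a score, a fold ratio and −log10 p and q values from the authors' peak caller, of which −log10 q was used, to rank peaks within a list and for a stricter threshold. No reads are given, so depth is unknown.

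Windows, merged regions (1 bp overlap), covered length and overlaps were computed with Python 3.11.15, numpy 2.4.6 and pandas 2.3.3. Exact permutation tests per gene ran over libraries with Benjamini-Hochberg adjustment over 21887 genes and a threshold of 0.05. The scripts were tested on simulated data. The members and lists were chosen with earlier results of these data known. Every member is accounted for. Values are given by library for members with lost or gained regions, with lists that do not overlap, or with ARID1A in or within 1 kb of the body. Same-numbered H3K4me2 libraries correlated in their deviations across genes by 0.45, 0.43 and 0.14 for covered length. The numbers were taken to pair the samples, and the pairing comes from the data, not from the labels. It is weak for number 3, since WT library 3 correlated by 0.13 with KO library 1. Alternatives were windows of 10 and 50 kb, equal numbers of peaks, stricter peaks, shares of the list, merging within 500 bp, pairing by number and leaving out each library.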

Additional observations from a re-analysis of the deposited data

How the results depend on the processing

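Absence of a peak is limited by the depth and by the peak threshold of each library, both of which are unknown here, and the unequal lists move the counts. Shares of all genes, or of regions near all genes, under the same setting are in brackets. For the C/EBPα peak number, 5 genes were lower in KO, against 8 with a window of 50 kb (11.3%), 1 with the 16178 widest peaks of every list (Acot1, 4.96%), 2 with wide peaks only (from the pooled median width up, 3.86%), 3 as a share of the list (9.07%) and 7 to 11 with a library left out (11 without WT 1, 21.3%, 8 without WT 2, 9.91%, and 8 without KO 2, 13.1%). Genes higher in KO numbered 6, against 3 with wide peaks (4.99%), 12 as a share of the list (12.7%) and 6 to 9 with a library left out (9 without WT 2, 12.4%). The 2 lower genes with wide peaks were Acot5 and Eci2, neither of them among the 5. The 3 higher ones were Acaa1a, Acadvl and Pdk4, of which Pdk4 was among the 5 lower genes with all peaks. Of the 3 lower genes as a share of the list, Angptl4 and Cd36 were among the 5 and Acaa1b was not. For H3K4me2 peak number, the 0 lower genes became 4 with stronger peaks (2.29%), 1 as a share (3.45%) and 0 to 3 with a library left out (3 without KO 3, 3.08%), and the 1 higher gene became 0 with a window of 50 kb, with equal numbers (24908 per list), with stronger peaks and as a share, 4 in the replicate block (3.11%) and 1 to 10 with a library left out (10 without KO 1, 12.1%, 3 without KO 2, 2.14%, and 2 without WT 3, 1.43%). For covered length, the 0 lower genes became 1 with equal numbers (2.02%), 6 as a share (3.29%), 11 in the replicate block (8.68%) and 0 to 7 with a library left out (7 without KO 2, 8.85%), and the 0 higher genes became 0 to 3 (3 without KO 1, 14.8%). The 10 lost regions became 5 with equal numbers (5.81% of regions in both WT lists, and 13.1% near all genes), 3 with wide peaks (7.5% and 16%) and 10 to 20 with a library left out (20 without WT 1, 15.4% and 27.5%). The 7 gained regions became 3 with a window of 10 kb (3.8% of regions in both KO lists, and 5.74% near all genes), 4 with wide peaks (7.84% and 12.8%) and 9 to 15 with a library left out (15 without WT 2, 14.2% and 17.3%, 13 without KO 1, 10.7% and 11.6%, and 14 without KO 2, 12% and 9.9%). ARID1A on regions in both WT lists went from 38 to 24 with wide ARID1A peaks. This setting leaves out the narrower ARID1A peaks, so the count could not rise, and the same change near all genes was not computed. Leaving a library out loosens the rule for a call, since fewer lists must agree. The difference in C/EBPα peak number (KO minus WT) reversed for Acsl5 with 10 kb (1.0) and, with wide peaks, for Cd36 (0.5), Pdk4 (1.0), Angptl4 (1.0) and Acsl5 (0.5); the cause was not tested. Pairing the C/EBPα libraries by number, whose deviations correlated by 0.03, gave 6 lower (10.4%) and 6 higher genes (4.8%). The pairing changed no other count by over 1.5 times.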
